A study of Mus musculus with 2 samples.

Results

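The epidermal growth factor (EGF) receptor family and its ligands were compared between lungs of wild-type and of Rosa26-Foxm1 mice. The set has 9 genes, namely the receptors Egfr, Erbb2 and Erbb3, the ligands Areg, Ereg, Hbegf, Tgfa and Btc, and the receptor inhibitor Errfi1. Its members were found by gene symbol in the platform's probe annotation, with symbols updated through the gene ID. Of the 9 genes, 7 had a probe, each of them 1 probe, out of 13840 named genes on the array. No probe carried Areg or Erbb3 in the annotation used here, so both were not analysed. Of the 7 with a probe, 6 were measured, meaning above the floor (the median intensity of an array) on at least 1 array, and all 6 were above it on both arrays. Tgfa was below it on both.

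Each group was 1 array of RNA pooled from the left lungs of 3 mice, taken 12 weeks after the carcinogen 3-methylcholanthrene. Labels describe the wild-type animals as male and of strain FVB/N, and for the Rosa26-Foxm1 mice, which carry a transgene for the proliferation-associated forkhead factor Foxm1, the labels used here state neither sex nor strain. All mice of both groups received 3-methylcholanthrene once at 15 µg/g and then the lung tumour promoter butylated hydroxytoluene in 6 weekly doses, 150 µg/g first and 200 µg/g after that, all by intraperitoneal injection. No untreated lung was analysed here, and no source used here gives the age of the mice. The Rosa26 promoter is active in most cell types, so the transgene is not tied to a lung cell type. RNA of whole lobes mixes all cells of the lung, so fewer cells of a type and less RNA per cell cannot be told apart. Tissue was not separated into tumour and normal lung as far as the labels say.

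EGF family ligands are made as membrane-anchored precursors that proteases of the ADAM family cut free. A freed ligand binds Egfr, which pairs with itself or with another receptor of the family and switches on its kinase. Erbb2 has no known ligand of its own and serves as the favoured partner, and Erbb3 has little kinase activity and signals through its partners. Errfi1, also called Mig6, is induced by EGF signalling and binds the kinase domain of Egfr to shut it off. In the lung the pathway is known for epithelial growth and repair.

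After quantile normalisation, no member of the family differed by 1.5-fold, the size used here to count genes. The receptors Egfr and Erbb2 were lower in Rosa26-Foxm1 lung, by 1.46-fold and 1.35-fold, while the ligands Ereg, Hbegf and Btc and the inhibitor Errfi1 were slightly higher, by 1.06-fold to 1.20-fold. Of the 6 measured members, 0 were at least 1.5-fold higher, against 7.08% of all 9518 measured genes. The count at least 1.5-fold lower was 0, against 8.45%, but 1 (Egfr, 1.51-fold) in the deposited scale. Such counts among 6 genes do not set the family apart from these shares. With 1 array per group there was no replicate spread and no test between the genotypes, so every difference describes these 2 pools.

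The sequences just before the start sites of Egfr, Erbb2, the ligand with the largest difference and the inhibitor are shown. The reason is that the compared mice differ in a forkhead transcription factor. No window was listed for Erbb3, Ereg or Hbegf. The sequences are from RefSeq, build GRCm38.p6, and cover the 250 bases before the start, 5′ to 3′ on the gene's own strand. Egfr lies at chr11:16751953-16752202 on the plus strand, Erbb2 at chr11:98412234-98412483 on the plus strand, Btc at chr5:91402995-91403244 on the minus strand and Errfi1, at the first of its 2 listed starts, at chr4:150853546-150853795 on the plus strand. Each of these 4 windows ends just before the first base of the gene as listed, outside its exons and introns. Capitals mark matches to any motif searched.
Egfr: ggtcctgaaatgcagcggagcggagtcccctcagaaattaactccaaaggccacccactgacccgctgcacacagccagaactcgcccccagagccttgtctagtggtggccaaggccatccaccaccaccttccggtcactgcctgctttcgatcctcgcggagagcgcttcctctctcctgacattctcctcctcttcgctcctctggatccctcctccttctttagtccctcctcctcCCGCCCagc
Erbb2: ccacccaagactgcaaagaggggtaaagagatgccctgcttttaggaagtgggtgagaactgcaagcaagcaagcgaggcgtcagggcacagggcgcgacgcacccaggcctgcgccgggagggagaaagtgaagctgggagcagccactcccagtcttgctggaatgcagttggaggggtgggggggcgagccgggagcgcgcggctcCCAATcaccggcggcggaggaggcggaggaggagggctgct
Btc: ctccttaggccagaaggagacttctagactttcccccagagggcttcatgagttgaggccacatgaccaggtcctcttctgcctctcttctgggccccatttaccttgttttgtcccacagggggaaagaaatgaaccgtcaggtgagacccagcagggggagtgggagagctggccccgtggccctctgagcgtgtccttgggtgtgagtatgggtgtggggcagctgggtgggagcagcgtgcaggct
Errfi1: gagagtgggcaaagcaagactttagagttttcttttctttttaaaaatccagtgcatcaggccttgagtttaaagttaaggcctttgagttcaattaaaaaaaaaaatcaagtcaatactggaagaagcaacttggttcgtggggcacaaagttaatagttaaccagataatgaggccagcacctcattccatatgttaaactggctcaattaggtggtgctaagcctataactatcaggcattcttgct

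The motifs were searched on both strands and are the forkhead core (TGTTTA), the cell cycle element CHR (TTTGAA), the GC box (GGGCGG), the TATA box (TATAAA), the AP-1 site (TGANTCA), the CCAAT box (CCAAT) and the cyclic AMP response element CRE (TGACGTCA). The CRE was added after the sequences were seen. The letters of the forkhead core were found in none of the 7 windows that were listed for 6 of the 9 members, and in 12.0% of the 32851 windows of the same length in the table. CHR, in 16.0% of all windows, and the AP-1 site, in 6.75%, were not matched in these windows either. Egfr had 1 GC box, starting 9 bases before the start, and Erbb2 1 CCAAT box at 41 bases. Neither receptor had a TATA box. The window at the second Errfi1 start, which lies within the listed gene and is not printed, held 3 GC boxes, of which a pair overlaps, a CCAAT box, a TATA box 28 bases before the start and a CRE at 51 bases. The Btc window and the first Errfi1 window matched none of the 7 motifs. The GC box occurred in 32.7% of all windows, the CCAAT box in 33.8%, the TATA box in 12.4% and the CRE in 1.55%. Areg, which had no probe, also had a CRE, at 61 bases, and a TATA box at 31 bases. A match describes letters only, and the arrays measured no binding.

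The 2 arrays hold 33012 probes each, with linear intensities between 0.0294 and 2820 (wild type) or between 0.0510 and 2268 (Rosa26-Foxm1), and a median of 1.00 on both. Quantile normalisation gave both arrays the same distribution, and the floor was 1.00. The only error that could be measured is the probe SD, the spread of the log2 difference between 2 probes of a gene divided by the square root of 2. It was 0.31 over 317 genes, 0.37 for dimmer and 0.23 for brighter pairs, split at an intensity of 10.5, and it holds no difference between mice or between hybridisations. Foxm1, the gene of the transgene, was close to the floor with 1.13 on the wild-type and 1.23 on the Rosa26-Foxm1 array (log2 difference 0.11), so its probe does not check the labels. The lung epithelial markers Sftpc, Scgb1a1 and Epcam were far above the floor on both arrays.

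**Figure D1:**
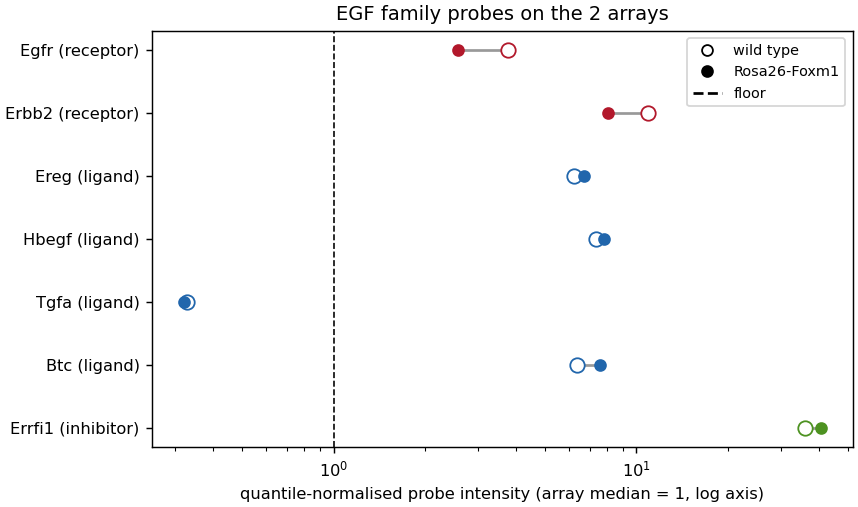
Quantile-normalised intensity of the 7 member probes (log axis, array median = 1) in wild-type (open points) and Rosa26-Foxm1 lung (filled points), 1 array each, in red for receptors, blue for ligands and green for the inhibitor. Both receptor probes are dimmer on the Rosa26-Foxm1 array, and the Tgfa probe lies below the dashed floor of 1.00 on both.

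Egfr, the receptor for all 5 ligands of the set, had a normalised intensity of 3.77 for the wild-type pool against 2.58 for the Rosa26-Foxm1 pool, and pairs of values below keep this order. It was therefore lower with the transgene, by a log2 difference (Rosa26-Foxm1 minus wild type) of -0.55, or 1.46-fold, a change of -31.6%. The deposited values before normalisation were 3.83 and 2.55, or 1.51-fold, so Egfr passed the 1.5-fold size in the deposited scale and missed it after quantile normalisation. The difference was 1.77 times the probe SD of all pairs. Both Egfr intensities lay in the dimmer range, where the probe SD was larger, at 0.37. Among all measured genes the difference stood at percentile 9.83 from the lowest. It stood at percentile 11.8 among the 1294 genes whose mean log2 intensity was within 0.5 of that of Egfr. RefSeq lists 2 curated transcripts of Egfr, and the annotation ties the probe to 1 of them. The bases that the probe covers were not used here, so which forms it reads is not known.

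Erbb2, the partner receptor without a ligand, was at 10.9 against 8.08. Its log2 difference of -0.44 is 1.35-fold lower, a change of -26.0%, and 1.41 times the probe SD of all pairs. Its intensities lay on either side of the 10.5 that splits dimmer pairs (probe SD 0.37) from brighter ones. Erbb2 stood at percentile 15.2 of all measured genes and at 13.3 among 1651 genes of similar brightness. The 5th and 95th percentiles of the latter were -0.65 and 0.58. For Egfr those percentiles were -0.79 and 0.81, so both receptors lay inside the range between them. The difference of Egfr and that of Erbb2 were 0.11 apart, well under the probe SD.

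Of the ligands, Btc, betacellulin, which binds Egfr and Erbb4, had the largest difference. It was at 6.36 against 7.60, a log2 difference of 0.26, or 1.20-fold higher. That is 0.83 of the probe SD and percentile 80.2 among 1618 genes of similar brightness. Ereg, epiregulin, was at 6.24 and 6.69 (log2 difference 0.10, 1.07-fold). Hbegf, the heparin-binding ligand that also serves as the diphtheria toxin receptor, was at 7.37 and 7.80 (log2 difference 0.08, 1.06-fold). These differences were 0.32 and 0.26 of the probe SD, and they stood at percentiles 64.9 and 63.3 of all genes. Tgfa, transforming growth factor alpha, had deposited intensities of 0.304 and 0.344. These were near the 20th percentile of probes on each array (20.1 and 19.5), so it has no fold here and its level was not detectable above the floor.

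Ereg, Areg and Btc lie in a run of neighbouring genes on mouse chromosome 5 in the order Epgn, Ereg, Areg and Btc, with no other protein-coding gene starting between them. Along this run, the Epgn probe was below the floor on both arrays (deposited 0.294 and 0.643), Ereg and Btc were measured with differences of 0.10 and 0.26, and Areg had no probe. The measured neighbours therefore moved by less than the probe SD each.

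Errfi1, the inhibitor, was at 36.0 against 40.6, and its probe was at percentiles 91.0 and 91.8 of the probes of the arrays. Its log2 difference was 0.17 (1.13-fold higher), 0.57 of the probe SD and percentile 75.5 among 1104 genes of similar brightness. The probe SD of brighter pairs, 0.23, was also larger than this difference.

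**Figure D2:**
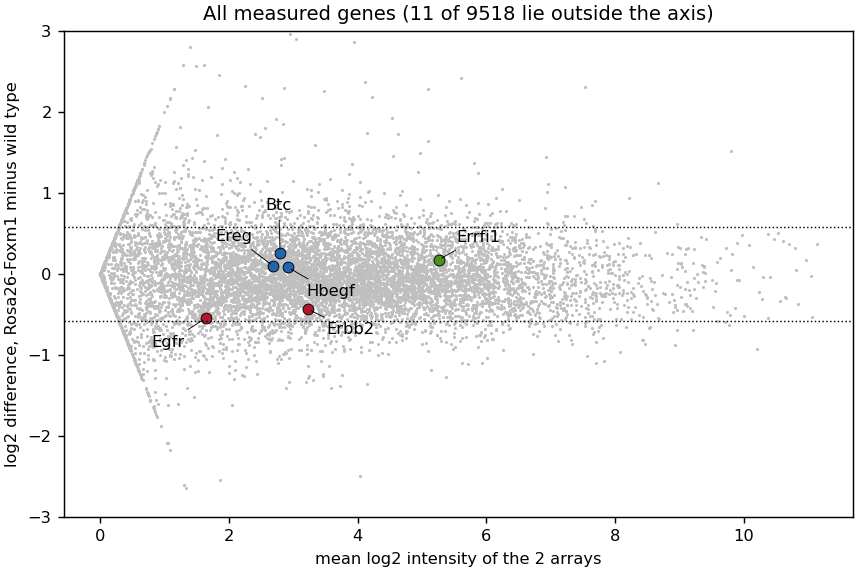
Log2 difference (Rosa26-Foxm1 minus wild type) against mean log2 intensity for the 9518 measured genes (grey; 11 lie outside the axis), with the 6 measured members in red (receptors), blue (ligands) and green (inhibitor) and dotted lines at 1.5-fold. All 6 members lie between the dotted lines, with Egfr nearest to the lower line at -0.55, and the slanting edges at the left are genes below the floor on 1 array.

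The receptors and the other members lay on opposite sides of 0. Over the members the median log2 difference was 0.09, against -0.06 over all measured genes, with 4 members above 0 and 2 below, while of all genes 4177 were above 0 and 5334 below. The smallest gap between a receptor and another measured member, Erbb2 to Hbegf, was 0.52 on the log2 scale, and the largest, Egfr to Btc, was 0.80. The error of a difference between 2 probes is 0.44 from the probe SD of all pairs and 0.52 from that of dimmer pairs, to which most members belong by brightness. The smallest gap was thus no larger than the error for dim probes. It was 0.41 after a correction for gene length.

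Gene length moved with the differences on these arrays. The shortest 25% of measured genes had a median log2 difference of 0.12 and the longest 25% one of -0.19. Egfr is a long gene, at percentile 95.1 of measured genes by length, and Erbb2 was at percentile 57.1. With the differences corrected for length, Egfr was at -0.38 and Erbb2 at -0.41, and Btc was at 0.32. The correction was chosen after the data were seen, and how length came to move with the differences was not tested.

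**Figure D3:**
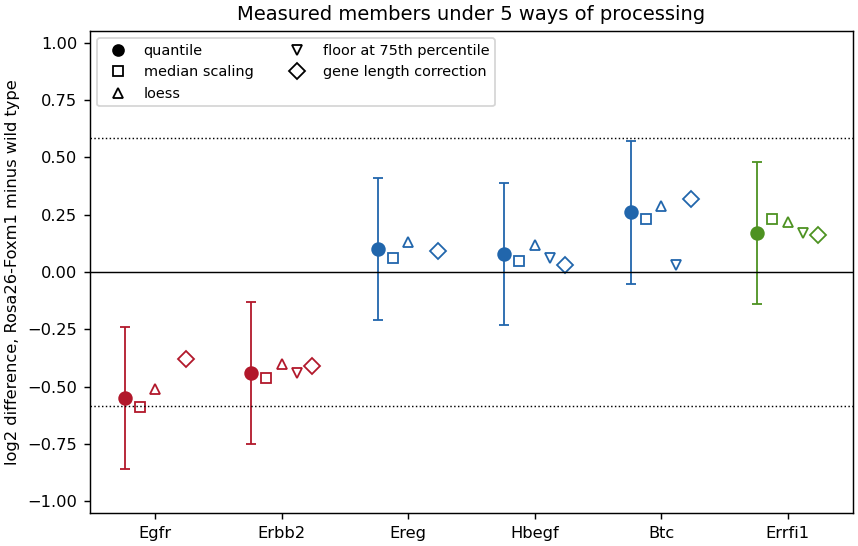
Log2 difference (Rosa26-Foxm1 minus wild type) of the 6 measured members under quantile normalisation (filled circles; bars are 1 probe SD, 0.31, not a replicate error) and 4 alternatives (open symbols), with dotted lines at 1.5-fold. Egfr and Erbb2 stay below 0 and the other 4 members above 0 in each setting that measured them, and Egfr and Ereg have no point with the floor at the 75th percentile, where both are below the floor.

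Of the other ligands and receptors of the family, Egf, Epgn, Nrg1, Nrg2, Nrg3, Nrg4 and Erbb4, only the ligands Egf, Epgn and Nrg4 had a probe in the annotation used here. All 3 were below the floor on both arrays, and the other 4 genes were not analysed. The deposited intensities were 0.493 and 0.785 for Egf, the founding ligand, and 0.403 and 0.305 for Nrg4, a ligand of Erbb4,; both genes lay under the array medians. No fold is given for genes below the floor on both arrays.

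Among genes that release or handle the ligands, 7 of 9 measured (14 listed) were below 0, with a median log2 difference of -0.41. Of these 9, 3 were at least 1.5-fold lower, beside 8.45% of all measured genes, and 0 were higher. With a 75th percentile floor 1 was lower, and without any floor 5 were. Adam9, a membrane protease that can cut Hbegf, was at 7.26 and 2.37 (3.06-fold lower). Timp3, an inhibitor of Adam17, was at 22.7 and 12.2 (1.87-fold lower). Adam10, the protease that cuts Btc, was at 5.29 and 3.03 (1.75-fold lower). Each of these 3 differences was more than 2 times the probe SD, and after the length correction they were -1.51 for Adam9, -0.83 for Timp3 and -0.67 for Adam10. Adam17, the main protease for Tgfa, Areg, Ereg and Hbegf and named here after its value was seen, was at 17.8 and 13.5 (1.32-fold lower).

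Of 21 listed genes that restrain or degrade the receptors, 17 were measured, with a median of -0.07, 6 above 0 and 11 below. At the 1.5-fold size 0 were higher, beside 7.08% of all measured genes, and 0 lower, beside 8.45%. Their range was -0.57, for the Ras pathway inhibitor Spred1, to 0.48, for the ubiquitin ligase Stub1 (both named after their values were seen), so single members differed by about as much as Egfr and Erbb2. After the length correction Spred1 was at -0.48 and Stub1 at 0.26, and Spred1 was dim, at 2.01 and 1.36. Under the deposited scale 1 of the 17 genes was at least 1.5-fold lower.

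Of the adaptors and kinases below the receptors, 15 of 28 listed genes were measured, and 12 of the 15 were below 0, with a median of -0.50 against -0.06 over all measured genes. At the 1.5-fold size 5 were lower, beside 8.45% of all genes, and 0 higher. The lowest was Vav2, a signalling protein that binds activated Egfr, at 4.16 and 1.99 (2.09-fold lower). Plcg1, the phospholipase C that docks on activated receptors, was at 8.70 and 4.52 (1.93-fold lower, and -0.22 on the log2 scale with the floor at the 75th percentile). Pik3ca, a catalytic subunit of PI3 kinase, was at 19.0 and 11.6 (1.63-fold lower). The other two, Pik3cb at 1.62-fold and Stat3 at 1.58-fold lower, were named after their values were seen. With the floor at the 75th percentile 3 were lower. With the length correction 3 were lower and 1 higher, and Pik3cb (-0.56) and Stat3 (-0.58) were just inside 1.5-fold.

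Genes that EGF signalling is known to induce quickly lay on both sides of 0. Of 21 listed, 18 were measured, and their median was -0.10, with 2 at least 1.5-fold higher, beside 7.08% of all genes, and 1 lower, beside 8.45%. With the floor at the 75th percentile 1 was higher, and without a floor 2 were lower. With the length correction 1 was higher and 2 were lower, and the median was -0.23. Atf3, a stress-induced factor, was at 11.0 and 24.4 (2.21-fold higher), and the proto-oncogene Myc was at 5.25 and 8.22 (1.57-fold higher, and on the log2 scale 0.49 after the length correction and 0.14 with the floor at the 75th percentile). Etv5, an ETS factor downstream of the MAP kinase pathway, was at 16.3 and 9.94 (1.64-fold lower). Egr1 was at 19.9 and 19.2 and cyclin D1 (Ccnd1) at 147 and 132, log2 differences of -0.05 and -0.16. Members of this list were thus split between higher and lower values.

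**Figure D4:**
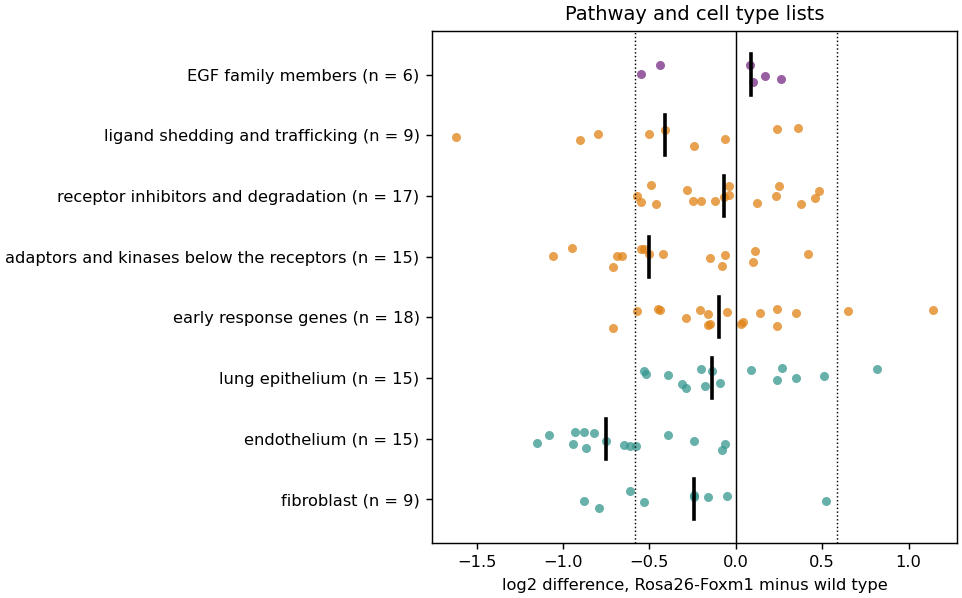
Log2 difference (Rosa26-Foxm1 minus wild type) of each measured gene (points) of the EGF family, of 4 pathway lists (orange) and of 3 cell type marker lists (green), with each list's median (bar) and dotted lines at 1.5-fold. The medians are 0.09 for the family, -0.50 for adaptors and kinases and -0.75 for endothelium, and all 15 endothelial markers lie below 0.

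Markers of cell types in which these genes could be made are given beside the members, with the share of all measured genes at least 1.5-fold higher (7.08%) or lower (8.45%) as the background of each count. Lung epithelial markers lay on both sides of 0, with 6 of 15 above it, 1 at least 1.5-fold higher, 0 lower and a median of -0.14. Loess scaling gave 2 lower. The highest were Cldn7, a tight junction claudin, at 31.0 and 54.9 (log2 difference 0.82), and Sftpa1, a surfactant protein, at 1236 and 1757 (0.51), both named after their values were seen. The lowest were Scgb1a1, a club cell protein, at 2544 and 1767 (-0.53, and -0.96 with loess scaling), and Sftpc, another surfactant protein, at 1228 and 859 (-0.52). Epcam, an adhesion molecule of epithelia, was at 119 and 112 (-0.09) and Cdh1, E-cadherin, at 167 and 135 (-0.31). The summed intensity of the 15 was 8705 against 7562, but 4933 against 4936 for the 13 markers other than Scgb1a1 and Sftpc. Fibroblast markers had a median of -0.24 over 9 of 9, with 3 lower, and a summed intensity of 1481 and 1217. Endothelial markers had a median of -0.75 over 15 measured of 16 listed, with 10 lower, Pecam1 at 329 and 156, and a summed intensity of 2597 and 1671. Macrophage markers had a median of 0.24 over 8 measured of 11 listed, with 3 higher and 2 lower, and spread widely. The higher were Gpnmb (21.4-fold), Mmp12 (11.0-fold) and Trem2 (7.49-fold), and the lower Siglecf (2.39-fold) and Marco (1.68-fold, below the floor on the Rosa26-Foxm1 array). The summed intensity was 664 and 1083, of which Chil3 made 587 and 790. These macrophage genes were named after their values were seen. Egfr and Erbb2 were lower beside lower epithelial, fibroblast and endothelial sums and a higher macrophage sum. The epithelial sum was nearly equal on both arrays with its 2 lowest markers left out and its 2 highest, Cldn7 and Sftpa1, kept. Sftpa1 alone went from 1236 to 1757, so this near equality depends on which markers are kept. No other list was trimmed. The part of cell composition in the receptor values was not tested.

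Markers of other immune cells that can make EGF family ligands were measured as well, to be read against the same background of 7.08% higher and 8.45% lower. Mast cell and basophil markers had a median of -0.11 over 5 measured of 9 listed, with 1 higher and 2 lower and a summed intensity of 125 and 114, and the defining markers Cpa3, Fcer1a and Ms4a2 were below the floor on both arrays. T cell and innate lymphoid cell markers had a median of 0.12 over 6 measured of 9, with 2 higher and 0 lower, and a summed intensity of 35.1 and 41.6, with Cd4 below the floor on both. Neutrophil markers had a median of -0.51 over 6 measured of 7, with 3 lower (1 with loess scaling), and a summed intensity of 757 and 555. Whether these cells bear on the ligand values was not tested.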

How the data were processed

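RNA of 2 pooled lung samples was labelled with digoxigenin and hybridised to 1-colour arrays, per the labels' protocols. The authors deposited 1 linear intensity per probe and array; how they read, background-corrected and normalised the images is not stated in any source used here. Medians of 1.00 on both arrays show that the deposited intensities were already scaled.

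Values were quantile normalised, set to a floor at the 50th percentile and turned to log2. A gene is represented by its measured probe with the highest mean. Of 13840 named genes, 13832 matched RefSeq (GRCm38.p6) by gene ID. The steps were checked on simulated data, with changes larger than those of any member and only in genes brighter than Egfr. That check does not cover differences as small as those of the members. The members and lists were chosen with earlier results of these data known. Named genes are all members, up to 3 at each end of a pathway list among those at least 1.5-fold apart, Ccnd1, Myc, Egr1, fixed cell type markers and Foxm1; the text says where others were named after their values were seen, and family ligands below the floor are also named. With 2 arrays, no gene was named for a similar pattern. Marker and pathway lists are described by counts and medians, without a test. A summed intensity takes in, on each array, only the markers above the floor on that array. Sequences are from RefSeq promoters. Results were recomputed with the deposited values, median scaling, loess (span 0.3), a floor at the 25th or 75th percentile or no floor, other probe rules, measurement on both arrays and, added later, gene length. Python 3.11.15, pandas and statsmodels were used. The number of arrays limits the precision.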

Additional observations from a re-analysis of the deposited data

How the results depend on the processing

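Each measured member kept its sign and stayed within the probe SD of its value in all alternatives that measured it. Several alternatives could not move a member, because each has 1 probe and all 6 were above the floor on both arrays. The other probe rules, measurement on both arrays, the floor at the 25th percentile and no floor returned the main value. Median scaling and the deposited values gave the same member values, as both array medians were 1.00. Egfr ranged from -0.59 to -0.38, Erbb2 from -0.46 to -0.40, Btc from 0.03 (where the floor at the 75th percentile replaced its wild-type value) to 0.32, and Ereg, Hbegf and Errfi1 from 0.03 to 0.23. The count of members at least 1.5-fold lower was 0, but 1 (Egfr) with median scaling and with the deposited values. Over all measured genes the count at least 1.5-fold higher was 674, with 1360 for a floor at the 25th percentile, 237 at the 75th and 1825 without a floor. The count at least 1.5-fold lower was 804, with 1546, 288 and 1996 in the same settings; these settings measured 12451, 5495 and 13840 genes. The list of other family ligands and receptors had no measured gene, so no median was available to vary; with the floor at the 25th percentile or none, 2 of its probes were at least 1.5-fold higher, and without a floor 1 was lower. The medians of the other 4 lists moved by less than the probe SD, although 17 of 100 recomputed counts within the 5 lists moved by more than 1.5 times or from or to 0. Cell type markers and the named single genes other than members were recomputed after the data were seen. Of 70 marker medians 1 moved by more than the probe SD (mast cell and basophil, to -0.54 with the floor at the 25th percentile), and of 235 single gene values 3 did (Plcg1, Myc and Scgb1a1). No paired analysis was possible because each group is 1 array, and leaving out a replicate was not possible for the same reason. Low intensities limit Tgfa, Egf, Epgn and Nrg4, which were below the floor on both arrays.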
